A study of Equus caballus with 6 samples.

Results

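COL3A1, COL5A1 and COL6A3 encode the alpha 1 chain of collagen III, the alpha 1 chain of collagen V and the alpha 3 chain of collagen VI. The 3 genes were taken by their Ensembl identifiers (ENSECAG00000024769, ENSECAG00000009361 and ENSECAG00000020887) from a table of 26992 entries, and their values were examined in all 6 libraries of equine tenocytes. The tenocytes came from the superficial digital flexor tendons of 1 adult light breed mare and were used at passage 3. They were nucleofected either with a non-targeting siRNA (scramble control, 3 libraries, called the controls here) or with a siRNA against the equine mRNA of scleraxis (Scx), a transcription factor of tendon (Scx siRNA, 3 libraries). All cells, controls included, were grown on flexible silicone plates coated with collagen I and were stretched by 1% at 0.5 Hz for 2 h per day on 3 days before polyA RNA was sequenced. The 3 libraries of a group are repeats of the experiment with cells of the same animal, so the spread between them says nothing of other horses.

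Collagen I forms the thick fibrils of tendon, and the collagens described here accompany it. Collagen III is a fibrillar collagen of thinner fibrils that is prominent in healing tendon, while collagen V is a minor fibrillar collagen that takes part in the start of fibril assembly and limits fibril diameter. Collagen VI forms beaded filaments in the matrix next to the cell, and its alpha 3 chain is the largest of its chains. The comparison of both groups asks how the mRNA of these chains differs when strained adult tenocytes are exposed to a siRNA against Scx.

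The siRNA is shown because it is the only difference between the groups that the labels give. It was a duplex of 19 paired bases with 2 overhanging bases on each strand, and the paired part of the antisense strand was the reverse complement of that of the sense strand. Capitals mark the paired part, and the strands are written 5′ to 3′ as the submitters gave them.
Sense strand: AGAGAAAGUUGAGCAAGGAtt
Antisense strand: UCCUUGCUCAACUUUCUCUgg

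The values are normalized counts, reads per gene divided by a library's size factor. Between 6539504 and 12213421 reads lay on genes in a library. The control libraries had 13151 to 13392 entries above 0, and the Scx siRNA libraries had 11026 to 11183. Scx siRNA replicate 2 had 11183 such entries at 10255963 reads, and control replicate 1 had 13151 at 8181819 reads. The cause of this difference between the groups was not tested. Scx itself was sparse, with 5, 7 and 25 reads in the controls and 5, 0 and 0 after Scx siRNA (log2 fold change -2.19, adjusted p = 0.192 from limma). The groups overlapped, because the first Scx siRNA library had as many reads of Scx as the first scramble control library. The study itself measured lower Scx mRNA after Scx siRNA by qPCR on the same samples, and also reported fewer Scx reads. It related the sparse reads to a GC bias along this mRNA. Of the genes used to check the label of tenocytes, DCN, COL1A1, COL1A2, COMP, MKX and FMOD were detected in the libraries and THBS4 was low, at a mean of 14.1 normalized counts. TNMD was listed at 0 in all 6 libraries, and so was SELE, the only endothelial gene with an identifier in the sources used. In bulk RNA, fewer cells that express a gene cannot be told apart from less mRNA per cell.

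In tenocytes exposed to Scx siRNA, COL5A1 fell to 0.333 of its mean control level and COL6A3 to 0.567 of it. COL3A1, at 0.821 of its mean control level, did not pass the test. The fold change was largest in size for the chain with the fewest reads, and the ratios of the chains within a library, given further on, compare the 3 genes with each other. All 3 genes were lower in every Scx siRNA library than in any scramble control library. That separation, in this direction, was found for 25.8% of the 11517 genes tested, and for 15.4% of the 1943 tested genes whose mean reached 1000 normalized counts, to which the 3 genes belong.

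COL3A1 had 81622, 77001 and 77851 normalized counts in the scramble control libraries. In the Scx siRNA libraries it had 73798, 52834 and 67587. The control libraries lay close together, with a mean of 78825 ± 2460 (SD, n = 3), whereas the Scx siRNA libraries, at 64739 ± 10768 (SD, n = 3), ranged from one just under the controls to the clearly lower second library. It was the gene with rank 2, 2 and 4 by normalized count among the controls and with rank 9, 8 and 8 in the Scx siRNA libraries. On log2(normalized count + 1) the fold change of COL3A1 was -0.30, with a 95% interval from -0.84 to 0.25 and an adjusted p of 0.368 (limma, two-sided, Benjamini-Hochberg adjustment over all genes tested). The interval includes both a decrease of the size seen for COL6A3 and a small increase. Leaving out Scx siRNA replicate 2 brought it to -0.16 (limma adjusted p = 0.467), whereas it was -0.71 after quantile normalization (adjusted p = 0.0503) and -0.69 after cyclic loess normalization (adjusted p = 0.0442), where it passed.

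COL5A1 had 1816, 2203 and 1956 normalized counts in the scramble control libraries. It had 488, 854 and 651 in the Scx siRNA libraries. Every Scx siRNA library was far below the lowest control library, and the second, which was the lowest for COL3A1, was the highest of the 3 for COL5A1. COL5A1 fell from 1992 ± 196 to 664 ± 184 normalized counts (SD, n = 3 each), which on the log2 scale was a fold change of -1.62 (95% interval -2.16 to -1.07, adjusted p = 0.00495 from limma). In rank it moved from places 643 to 858 among the controls to places 2508 to 3505 after Scx siRNA. This limma fold change was past 1.5 in size, the limit that the study applied to its own DESeq2 fold changes. Leaving out Scx siRNA replicate 1 brought it to -1.41, which is inside that limit. The adjusted p was then 0.0132 (limma), still under 0.05.

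COL6A3, one of the most highly expressed genes of these cells, had 51550, 47493 and 51692 normalized counts in the scramble control libraries. The Scx siRNA libraries had 30790, 28064 and 26558. Both groups were tight for this gene, and the gap between the lowest control and the highest Scx siRNA library was wider than either group's range. It fell from 50245 ± 2384 to 28470 ± 2145 normalized counts (SD, n = 3 each), with a log2 fold change of -0.82 (95% interval -1.27 to -0.37, adjusted p = 0.0219 from limma). Its rank was 8 to 12 among the controls and 20 to 23 after Scx siRNA. COL6A3 passed in 12 of 18 alternatives. Among the 12 were limma, edgeR and DESeq2 without Scx siRNA replicate 2 (adjusted p = 0.00695, 0.00206 and 3.67e-09), which are not separate checks. The adjusted p was 0.0708 with weights by group, 0.0830 with every gene above 0 tested, and 0.0935, 0.102 and 0.106 when control replicates 1, 2 and 3 were left out in turn, with log2 fold changes of -0.80, -0.86 and -0.80.

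**Figure D1:**
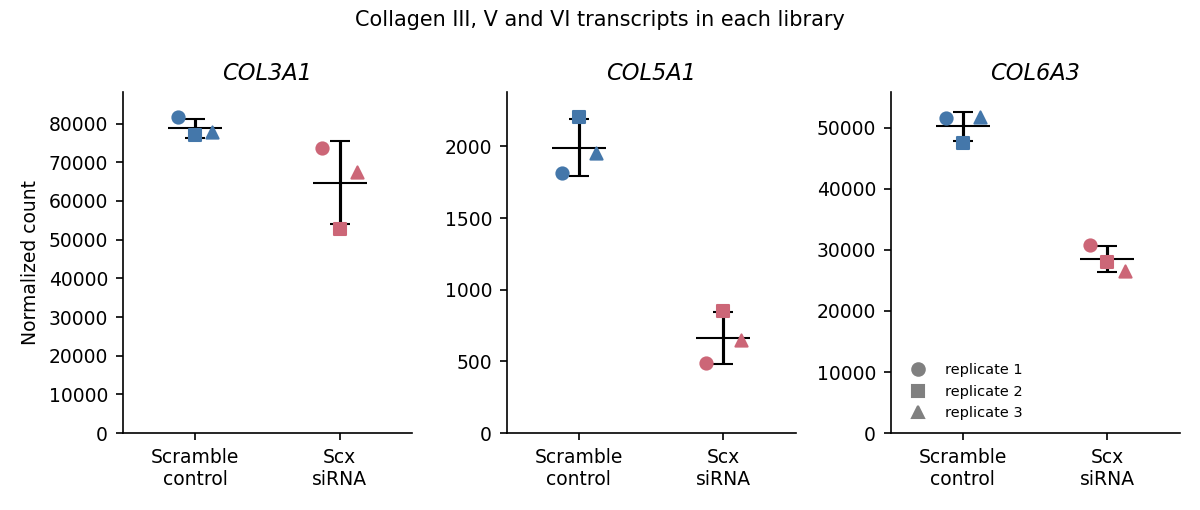
Normalized counts of COL3A1, COL5A1 and COL6A3 (vertical axes, from 0, a different scale for each gene) in the 3 scramble control libraries (blue) and the 3 Scx siRNA libraries (red), with the symbol giving the replicate number and the black bars the group mean and SD. The groups do not overlap for any of the 3 genes, and the second Scx siRNA library (square) is the lowest red point for COL3A1, at 52834, and the highest for COL5A1, at 854.

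These calls stand against a broad background. Of all 11517 genes tested, 25.0% had an adjusted p under 0.05, 12.1% lower and 12.9% higher in Scx siRNA, and 6.23% were also lower by 1.5 or more on the log2 scale. Among the 1943 highly expressed genes the calls leaned upwards, with 8.96% lower and 29.9% higher, and 1.49%, COL5A1 among them, lower by 1.5 or more. These shares depend on the libraries kept. The 2882 calls became 597 higher and 281 lower, 380 and 137, or 415 and 173 without control replicate 1, 2 or 3. Without Scx siRNA replicate 1, 2 or 3 they were 1242 higher and 1435 lower, 2294 and 2595, or 1717 and 1983. The median log2 fold change was -0.20 over all genes tested and 0.38 over the 1943. Against the second median COL3A1 lay lower by a log2 difference of -0.68, COL6A3 by -1.20 and COL5A1 by -1.99. Of the 1943 genes, 21.0% had a log2 fold change as low as that of COL3A1 or lower, against 8.80% for COL6A3 and 1.13% for COL5A1.

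**Figure D2:**
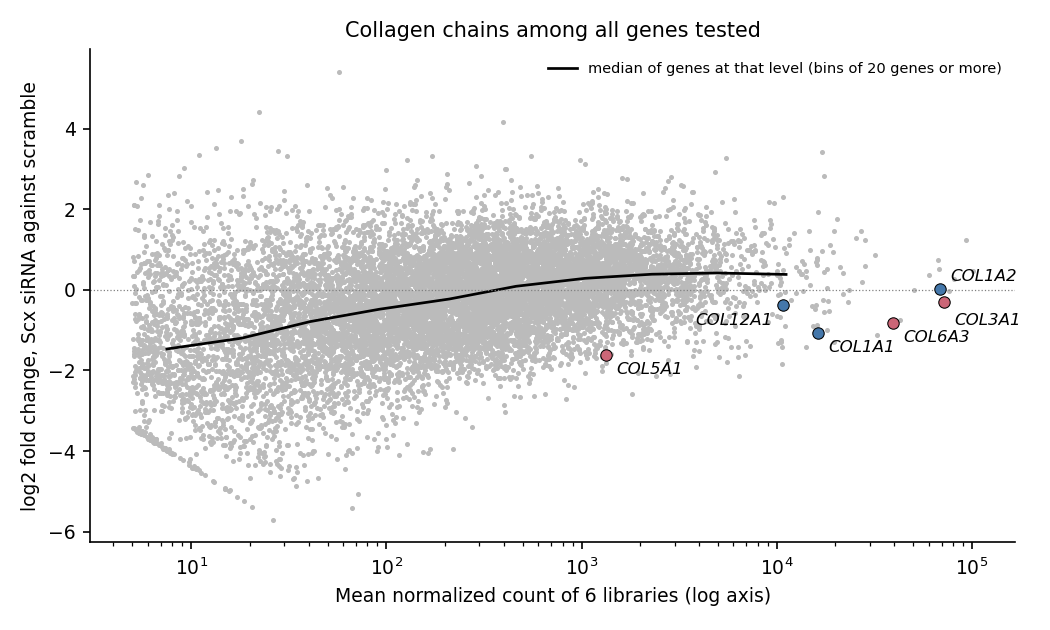
Log2 fold change of Scx siRNA against scramble control (vertical axis) by the mean normalized count of the 6 libraries (horizontal axis, log scale) for the 11517 genes tested (grey), with COL3A1, COL5A1 and COL6A3 in red, COL1A1, COL1A2 and COL12A1 in blue, and the median of genes at each level as a black line. The line rises with the level of expression, and the 3 red points lie below 0, at -0.30, -1.62 and -0.82.

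The 3 genes also differed in how much their Scx siRNA libraries scattered. On the log2 scale the SD of COL3A1 was 0.04 among the controls and 0.25 after Scx siRNA. For COL5A1 the SD was 0.14 and 0.40, and for COL6A3 it was 0.07 and 0.11. A larger SD in Scx siRNA was the usual pattern, found for 91.2% of the genes tested, with a median SD of 0.16 and 0.59. Among the 1943 highly expressed genes the median SD in Scx siRNA was 0.382, above the SD of COL3A1 and COL6A3 and just under that of COL5A1.

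Read shares, which do not use the size factors, gave the same order. COL3A1 took 1.02%, 0.971% and 0.997% of control reads, against 0.766%, 0.517% and 0.748% after Scx siRNA. For COL6A3 the share was 0.646%, 0.599% and 0.662%, against 0.319%, 0.275% and 0.294%. COL5A1 had between 0.0228% and 0.0278% of control reads and between 0.00506% and 0.00836% after Scx siRNA. Its thinnest value, 396 reads in the first Scx siRNA library, carries a 95% Wilson interval of 0.00458% to 0.00558%, so counting error is small beside the difference between the groups. Such intervals cover counting error only, since reads copied by PCR are not independent molecules. Together the 3 genes took 1.60% to 1.69% of control reads and 0.800% to 1.09% after Scx siRNA. Shares differ more than normalized counts do, since the latter sum to between 7810004 and 7980434 per control library but to between 9033683 and 10221682 per Scx siRNA library. When every library was scaled to the same total, the log2 fold change was -0.58 for COL3A1 (adjusted p = 0.105), -1.90 for COL5A1 and -1.10 for COL6A3 (limma). That scaling moved the median of all genes by a log2 shift of -0.28. It also changed the balance of calls, from 1487 higher and 1395 lower genes to 959 higher and 2072 lower. A single factor per library cannot move a gene relative to the median of all genes, but quantile and cyclic loess normalization can. Relative to that median COL3A1 lay at -0.09 as deposited, at -0.69 after quantile and at -0.65 after cyclic loess normalization. COL5A1 lay at -1.41, -1.88 and -1.83, and COL6A3 at -0.62, -0.99 and -1.18, in the same order, so both methods placed all 3 genes further below the median.

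A ratio of 2 chains in the same library does not depend on the factor by which that library is scaled, and 6 such ratios were compared between the groups. The test was a two-sided exact permutation test, whose smallest possible p with 3 libraries per group is 0.1. The lengths of both mRNAs enter each ratio, so the groups can be compared by it but the molar amounts of the chains cannot. COL3A1 had 44.9, 35.0 and 39.8 times the normalized counts of COL5A1 in the controls, and 151, 61.9 and 104 times after Scx siRNA. The log2 ratio of COL5A1 to COL3A1 was -5.31 ± 0.18 and -6.63 ± 0.65 (SD, n = 3 each), a difference of -1.32 with no overlap between the groups (exact permutation p = 0.1, adjusted p = 0.15 over the 6 ratios). The log2 ratio of COL6A3 to COL3A1 was -0.66, -0.70 and -0.59 in the controls and -1.26, -0.91 and -1.35 after Scx siRNA. This difference, -0.52, also came with no overlap (exact permutation p = 0.1, adjusted p = 0.15), but it was -0.30 after quantile normalization (exact permutation p = 0.2). The log2 ratio of COL5A1 to COL6A3 differed by -0.80, again without overlap (exact permutation p = 0.1, adjusted p = 0.15), and by -0.53 without the first Scx siRNA library.

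Against the chains of collagen I the picture depended on the chain. COL1A1 and COL1A2 encode the alpha 1 and alpha 2 chains that combine in collagen I, and COL1A1 fell by 1.06 on the log2 scale (adjusted p = 0.0178 from limma) while COL1A2 differed by 0.01 (adjusted p = 0.971), a value whose sign changed under all 4 other scalings. COL3A1 had 4.26, 3.23 and 3.38 times the normalized counts of COL1A1 in the controls and 6.42, 6.69 and 5.34 times after Scx siRNA. The log2 ratio of COL3A1 to COL1A1 was thus higher by 0.77 with no overlap between groups (exact permutation p = 0.1, adjusted p = 0.15). To COL1A2, the ratio of COL3A1 was 1.18, 1.09 and 1.22 in the controls and 0.977, 0.693 and 1.21 after Scx siRNA. These overlap, as Scx siRNA replicate 3 lay among the controls, and the log2 difference of -0.31 had an exact permutation p of 0.3 (adjusted p = 0.36). It was -0.09 without Scx siRNA replicate 2, -0.50 without Scx siRNA replicate 3 and -0.46 after quantile normalization (exact permutation p = 0.1). The log2 ratio of COL5A1 to COL1A1 was -3.40, -3.43 and -3.56 in the controls and -4.56, -3.21 and -4.28 after Scx siRNA. The second Scx siRNA library lay above all controls, and the mean difference of -0.55 was within the spread (exact permutation p = 0.4, adjusted p = 0.4). It was -0.96 without that library and -0.28 without the first.

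**Figure D3:**
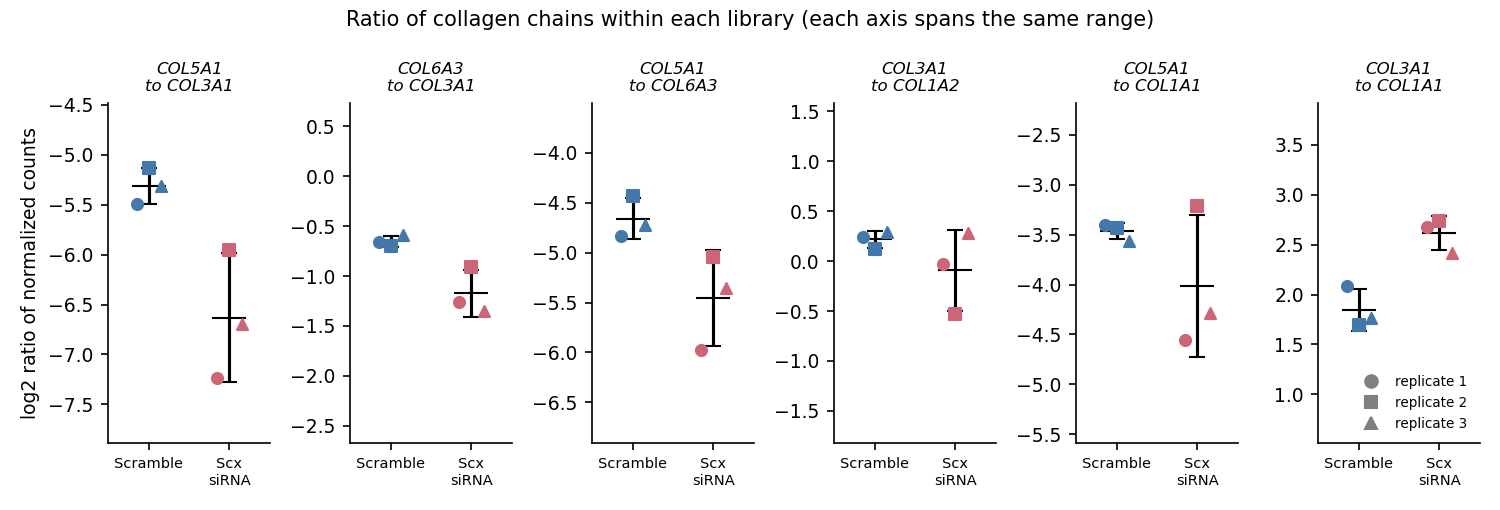
Log2 ratio of the normalized counts of 2 collagen chains within each library (vertical axes, all spanning the same range) for 6 pairs, in scramble control (blue) and Scx siRNA (red), with the replicate number as the symbol and the group mean and SD as black bars. The groups separate for COL5A1 to COL3A1, COL6A3 to COL3A1, COL5A1 to COL6A3 and COL3A1 to COL1A1, and they overlap for COL3A1 to COL1A2 and COL5A1 to COL1A1.

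As shares of the reads on the 6 collagen chains with an identifier (these 5 and COL12A1, a fibril-associated collagen), COL3A1 held 34.5%, 32.7% and 34.2% in the controls and 36.7%, 29.7% and 39.7% after Scx siRNA. The Scx siRNA libraries lie on both sides of the controls. COL6A3 held 20.2% to 22.7% in the controls and 15.3% to 15.8% after Scx siRNA, without overlap. COL5A1 held 0.768% to 0.936% in the controls and 0.242% to 0.480% after Scx siRNA. The 6 chains together took 2.91% to 2.97% of all control reads and 1.74% to 2.09% after Scx siRNA.

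**Figure D4:**
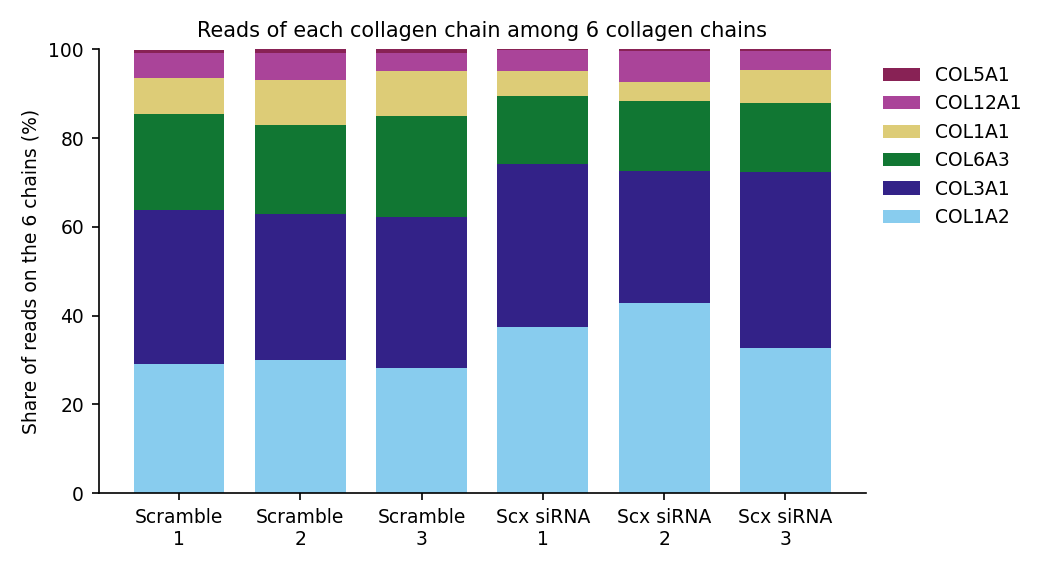
Share of the reads on 6 collagen chains that each chain took (vertical axis, percent, bars add up to 100%) in each of the 3 scramble control and 3 Scx siRNA libraries. The green part, COL6A3, is narrower in all Scx siRNA libraries (15.3% to 15.8%) than in all scramble control libraries (20.2% to 22.7%), while the share of COL3A1 lies on both sides of its control values.

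Of the 6 collagen chains, 3 were lower at an adjusted p under 0.05 (COL5A1, COL1A1 and COL6A3), 0 were higher and 3 did not pass (COL3A1, COL1A2 and COL12A1). The share of lower calls was 12.1% over all genes tested and 8.96% over the highly expressed ones. The median log2 fold change of the 6 chains was -0.59, against -0.20 for all genes tested. It was 0.38 for the highly expressed genes, to which all 6 chains belong. At an unadjusted p under 0.05 (limma) 0 chains were higher as well, and 0 were higher with edgeR or DESeq2 on 5 libraries. COL12A1 differed by -0.37 on the log2 scale (limma adjusted p = 0.335). When any control library was left out only 1 chain, COL5A1, passed as lower, and the number was 5 after cyclic loess normalization, which evens out a trend with the level of expression. The other chains of collagens V and VI were not analysed here, because the sources used pair no identifier with them. The study itself named COL6A2, a further chain of collagen VI, among the genes lower after Scx siRNA by its own criteria.

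The other matrix genes did not move in a single direction. Their counts stand beside 12.1% lower and 12.9% higher calls over all genes tested, and 8.96% lower and 29.9% higher among the highly expressed genes. Of the 5 small leucine-rich proteoglycans tested, which bind to collagen fibrils, 3 were higher, 0 were lower and 2 did not pass, with a median log2 fold change of 0.73. The largest rises were those of ASPN, a proteoglycan that binds collagen (log2 fold change 1.46, adjusted p = 0.00855), and LUM, a regulator of fibril thickness (1.23, adjusted p = 0.00951). Of the 9 other matrix proteins tested, 4 were lower, 0 were higher and 5 did not pass, with a median of -0.92. Of those that passed, ACAN, the large proteoglycan aggrecan, fell most (log2 fold change -2.10, adjusted p = 0.00281), followed by LAMA5, a laminin chain of basement membranes (-1.96, adjusted p = 0.00525). Of the 7 matrix enzymes tested, 2 were lower, 2 were higher and 3 did not pass, with a median of -0.31. LOXL4, a lysyl oxidase that cross-links collagen, fell by 1.24 on the log2 scale (adjusted p = 0.0119), and MMP2, a gelatinase, by 0.89 (adjusted p = 0.0380). FAP, a cell-surface protease that cleaves denatured collagen, rose by 1.75 (adjusted p = 0.00308), and MMP13, a collagenase, by 0.85 (adjusted p = 0.0286). Each of these 8 genes kept its sign in all 18 alternatives, and FAP, ACAN and LAMA5 passed in all of them. ASPN passed in 16, LOXL4 in 15, LUM and MMP2 in 14 and MMP13 in 11, while DCN, the remaining higher proteoglycan, passed in 8. At an unadjusted p under 0.05 (limma) the counts of 0 in these lists stayed 0, and BGN, FMOD, FN1 and FBLN1 passed in 0 of the 18 alternatives, which include edgeR and DESeq2 on 5 libraries. KERA and MMP1 were too low to be tested.

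**Figure D5:**
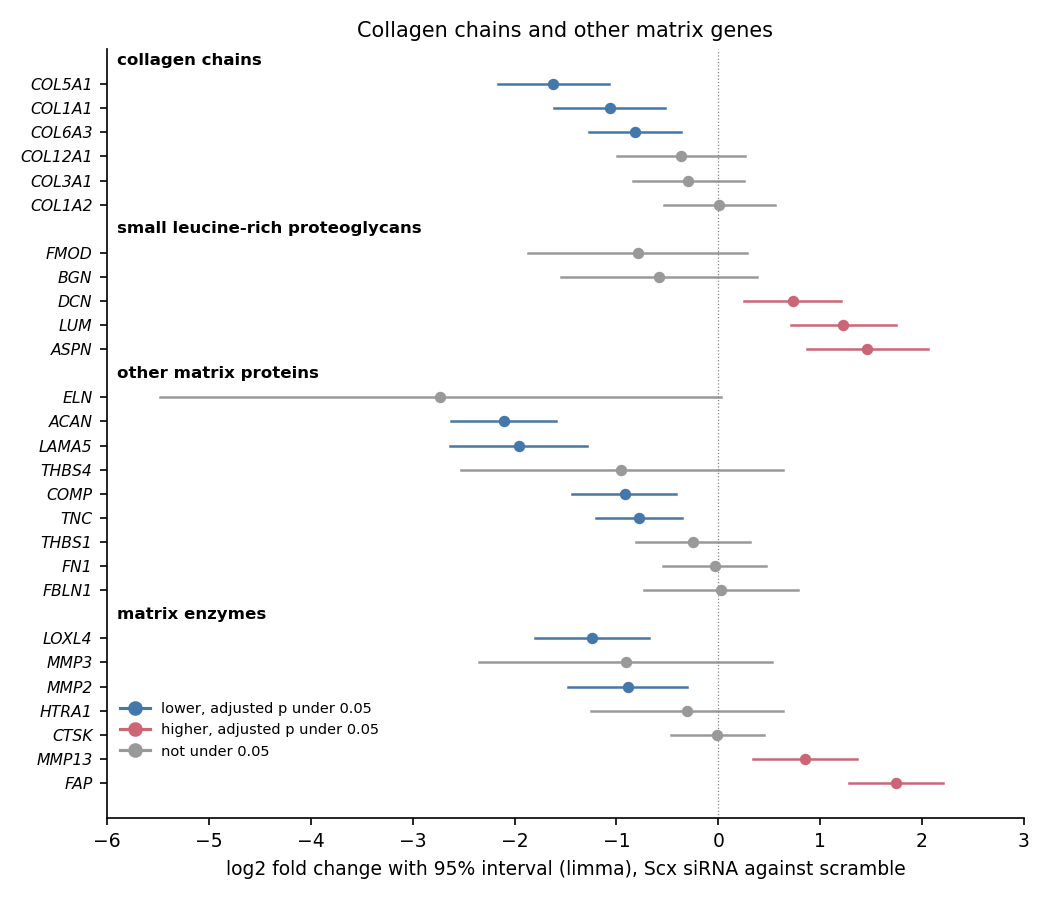
Log2 fold change of Scx siRNA against scramble control with its 95% interval from limma (horizontal axis) for the collagen chains, small leucine-rich proteoglycans, other matrix proteins and matrix enzymes tested, coloured by whether the adjusted p was under 0.05. COL5A1 and COL6A3 lie with COL1A1 among the lower genes, the interval of COL3A1 crosses 0 (-0.84 to 0.25), and the genes that were higher are DCN, LUM, ASPN, MMP13 and FAP.

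Over the 6 libraries, the profile of COL6A3 was most like those of ACAN (Pearson r = 0.99), LAMA5 (0.94) and TNC (0.93), among 41 listed genes whose mean reached 100 normalized counts. COL5A1 was most like AHNAK (0.95), ACAN (0.94) and COMP (0.91). For COL3A1 the nearest profiles were those of TGFB1 (0.96), MMP2 (0.95) and BGN (0.94). These values are a description, since all genes share the same 6 libraries and both groups are pooled. ACAN, LAMA5, TNC, AHNAK and COMP, like COL5A1 and COL6A3, were lower in every Scx siRNA library than in any control library. The same held for COL3A1, TGFB1 and MMP2, and for 25.8% of the 11517 genes tested. The likeness of COL5A1 and COL6A3 to their nearest genes therefore largely restates the difference between the groups. For COL3A1 the likeness also goes along with Scx siRNA replicate 2, which had the lowest value of COL3A1, TGFB1, MMP2 and BGN alike. BGN had 7215, 2268 and 6169 normalized counts after Scx siRNA against 6838 to 7095 in the controls, so its groups overlapped. COL3A1 shared none of its 3 nearest genes with the other members, whereas COL5A1 and COL6A3 both had ACAN.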

How the data were processed

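RNA of tenocytes of 1 horse was sequenced, 3 libraries each for scramble control and Scx siRNA. The authors trimmed reads (Trimmomatic), aligned them to EquCab2 (HISAT2 2.0.3, per the submitters' processing notes), counted them on Ensembl genes (HTSeq) and divided counts by DESeq2 1.12.4 size factors. The deposited values are thus a normalized signal, not raw counts. Gene coordinates were not used here. Columns with the authors' own group comparison (log2 fold changes, standard errors, test statistics and p-values) were not used. In each library 100% of the values above 0 were whole multiples of 1 step (tolerance 0.02 of a step), which gave reads and depth, 6539504 to 12213421 reads per library. Columns were assigned to libraries by the number and siRNA in their headers.

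The 11517 genes whose mean reached 5 were fitted in R 4.3.3 by limma 3.58.1, on log2 of the normalized count plus 1 (with trend, no covariates, two-sided, Benjamini-Hochberg adjustment). The fits were tried on simulated data with known changes. Those changes were larger than the ones of the 3 genes, so this does not test the calls made for them. Single values and ratios were compared by exact permutation tests. For single values the exact permutation p was 0.1 for COL3A1, COL5A1 and COL6A3 alike. That is the smallest p possible here, so this test does not tell the 3 genes apart. The alternatives were pseudocounts of 0.5 and 8, every gene above 0 or a mean of at least 50, TMM, quantile, cyclic loess and total-read scaling, weights by group, a fit with the replicate number as block, and leaving out single libraries. EdgeR 4.0.16 (quasi-likelihood) and DESeq2 1.42.0 on recovered reads were planned for all 6 libraries. The step of Scx siRNA replicate 2, 0.997, lies close to 1 and was treated as possible rounding. As in the other libraries, 100% of its values above 0 were whole multiples of its step. Its read counts were still taken as less certain (its shares of reads do not depend on the step). Both tools were therefore run on the other 5 libraries, a choice made after seeing the data.

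The genes named are the 3 members, the collagen chains, Scx, the genes of 3 matrix lists that passed with the 2 largest rises and falls, and for each member the 3 listed genes most like it. Gene names come from identifiers that the study pairs with a name. The members, lists and alternatives were chosen with earlier results of these data known.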

Additional observations from a re-analysis of the deposited data

How the results depend on the processing

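COL5A1 kept a negative log2 fold change and an adjusted p under 0.05 in all 18 alternatives (-1.90 to -1.41), and with each library left out it ran from -1.82 to -1.41. COL3A1 was negative in all 18 and passed only after cyclic loess normalization (-0.69, adjusted p = 0.0442). With each library left out it ran from -0.40 to -0.16. COL6A3 was negative in all 18 and passed in 12. It was -0.82 with every gene above 0 tested (adjusted p = 0.0830), with weights by group (0.0708) and with the replicate block (0.0526), and -0.88 to -0.77 with each library left out. COL1A2 turned to -0.03 with TMM, -0.25 with quantile normalization, -0.38 with cyclic loess normalization, -0.27 with total-read scaling, and -0.07 with edgeR and -0.04 with DESeq2 on 5 libraries, and ran from -0.06 to 0.16 with each library left out, the cause not tested. Quantile and cyclic loess normalization moved the median of all genes by 0.19 and 0.16. The 6 ratios kept their sign in the 9 alternatives run for each.

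The number of genes called, 2882, was 517 to 4889 with 1 library left out (878, 517 and 588 without control replicates 1, 2 and 3, 4889 without Scx siRNA replicate 2), 4849 with edgeR and 5000 with DESeq2 on 5 libraries. Lower collagen chains, 3, were 5 with cyclic loess normalization and 1 to 3 with a library left out in limma. The number was 4 with quantile normalization and with DESeq2 on 5 libraries. It was 2 with every gene above 0 tested, with weights by group and with the replicate block. Other matrix genes had 6 lower (2 to 7 with a library left out) and 5 higher, and the higher ones numbered 3 with every gene above 0, with quantile and cyclic loess normalization and with total-read scaling, and 1 to 5 with a library left out (2, 1 and 1 without control replicates 1, 2 and 3). The tests by edgeR and DESeq2 planned on all 6 libraries were not run. The study repeated its experiment, so a control and a Scx siRNA library may share a repeat. The labels do not say which do. Same-numbered libraries did not deviate together (correlations -0.08, 0.02 and 0.17). With so few libraries this cannot decide whether equal numbers mark the same repeat. The replicate block, which changed the calls from 2882 to 2117, is therefore given as a check. Depth limits none of the 3 collagens, the lowest count being 396 reads.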

Other observations

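TGFB1 and TGFB3 encode ligands of the transforming growth factor beta family, which induces fibrillar collagen in many fibroblasts. TGFB3 fell from 3333 ± 155 to 1644 ± 395 normalized counts (SD, n = 3 each), or by 1.05 on the log2 scale (adjusted p = 0.0146 from limma). TGFB1, at 426 ± 17.2 and 210 ± 126 normalized counts, differed by -1.27 on the log2 scale without passing (limma adjusted p = 0.118), with all Scx siRNA libraries below all scramble control libraries. MKX, a transcription factor of tendon, stood at 727 ± 45.8 and 868 ± 239 normalized counts, a log2 difference of 0.22 (limma adjusted p = 0.482) whose sign changed under 2 of the 4 other scalings. Of the 15 other highly expressed genes of these cells that were tested, 1 was lower, 3 were higher and 11 did not pass, beside 8.96% lower and 29.9% higher calls among all genes whose mean reached 1000 normalized counts. Their median log2 fold change was 0.43. The gene that was lower is AHNAK, a very large scaffold protein, at -1.11 (adjusted p = 0.0205).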
